A study of Mus musculus with 35 samples.

Results

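The genes described here are 10 members of the hypoxia-inducible factor (HIF) pathway of the mouse: the HIF subunits Hif1a, Epas1 and Arnt, the oxygen-sensing hydroxylases Egln1, Egln2, Egln3 and Hif1an, the ubiquitin ligase subunit Vhl, and the HIF target genes Bnip3 and Ankrd37. They were chosen by symbol, and all 10 were found among the 55487 genes of the deposited tables. The study knocked down 4930523C07Rik, the gene that encodes the micropeptide IAMP, in primary cardiac fibroblasts (CFs) of adult mice, and mutated it in mice. RNA-Seq gave 35 libraries, 27 of CFs and 8 of hearts. The CFs received a control siRNA (si-NC) or 1 of 2 siRNAs against IAMP (si-IAMP-1 and si-IAMP-2) and were left untreated, given IL-17 or given TGF-β, with 3 libraries in each of the 9 groups. For the IL-17 CFs the labels give 24 h of siRNA followed by 24 h of IL-17, and the times of the other CFs were not given in the sources used here. The hearts came from 4 C57BL/6 mice heterozygous for the IAMP mutation (Het) and 4 homozygous ones (KO). The mutation is a frameshift made with Cas9, both heart groups carry it, and no wild-type heart was analysed here. Nothing in the labels says whether the 3 libraries of a CF group came from separate cell isolations, so the p values below measure the spread between these libraries, which may be technical.

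HIF is a heterodimer of an oxygen-labile alpha subunit, encoded by Hif1a (HIF-1α) or Epas1 (HIF-2α), and the stable beta subunit encoded by Arnt. In oxygenated cells the prolyl hydroxylases of the Egln genes mark the alpha subunit, the von Hippel-Lindau protein (Vhl) then directs it to degradation, and the asparagine hydroxylase Hif1an (FIH) blocks its transactivation. When oxygen falls the alpha subunit accumulates, and the dimer binds hypoxia response elements with the core letters ACGTG or GCGTG. Egln3, Bnip3 and Ankrd37 are among its target genes, and Egln3 closes a feedback loop since its product hydroxylates HIF. This control acts on protein, whereas the values below are of mRNA.

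Promoter windows of 300 bases, 250 before and 50 after the start (RefSeq, GRCm38.p6), were available for 9 of the 10 genes, with 2 windows for Egln2, and Epas1 was not matched. A core motif, ACGTG or GCGTG on either strand, was present in 8 of these 10 windows, and in 43.8% of all 32851 windows of that length. It was present in 37 of 47 windows (78.7%) of other HIF target genes. Base composition was not matched in these comparisons. Bnip3 had 5 matches, Ankrd37 4, Hif1a 3, Egln1 2, Arnt and Egln3 1 each, Egln2 6 and 1 in its windows, and Vhl and Hif1an none. Matches can overlap, since the palindrome CACGTG is read on both strands. The 250 bases before the start are shown for Hif1a, the alpha subunit whose mRNA was higher in every siRNA comparison, and for the target genes Bnip3 and Egln3, which had the largest siRNA effects. Each is on the gene's strand, 5′ to 3′, with matches in capitals.
Hif1a (chr12:73907617-73907866, plus strand): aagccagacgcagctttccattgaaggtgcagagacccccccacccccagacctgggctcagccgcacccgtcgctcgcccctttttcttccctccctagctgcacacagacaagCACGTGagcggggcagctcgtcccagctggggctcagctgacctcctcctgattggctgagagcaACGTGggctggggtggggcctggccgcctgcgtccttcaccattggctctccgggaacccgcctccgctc
Bnip3 (chr7:138909507-138909756, minus strand): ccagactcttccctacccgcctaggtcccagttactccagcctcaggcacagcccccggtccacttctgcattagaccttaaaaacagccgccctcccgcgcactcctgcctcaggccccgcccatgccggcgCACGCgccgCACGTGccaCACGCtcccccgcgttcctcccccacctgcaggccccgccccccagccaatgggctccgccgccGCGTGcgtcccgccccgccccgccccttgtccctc
Egln3 (chr12:54203875-54204124, minus strand): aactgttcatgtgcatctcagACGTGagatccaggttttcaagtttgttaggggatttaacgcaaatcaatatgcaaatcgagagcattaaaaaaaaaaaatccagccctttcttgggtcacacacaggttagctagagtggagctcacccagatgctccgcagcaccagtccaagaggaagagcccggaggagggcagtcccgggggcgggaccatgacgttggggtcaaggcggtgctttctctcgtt
The Hif1a stretch holds a CACGTG and an ACGTG, beginning 135 and 70 bases before the RefSeq start. That start lies inside the gene as GENCODE vM21 annotates it on GRCm38 (chromosome 12, 73901375 to 73947530). The Bnip3 matches begin between 117 and 35 bases before the start, and the single Egln3 match begins 229 bases before it. A match describes the letters and is not evidence of binding.

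The CF libraries held 104139670 to 119232309 estimated counts and the heart libraries 23497027 to 23857313 counts. In the CF tables the most frequent value of a gene seen in only 1 library was 6, held by 857 of 3896, 700 of 4120 and 849 of 3873 such genes in the IL-17, TGF-β and untreated tables. A read pair was assumed to stand for 6 estimated counts, although not every value is a multiple of 6, and under that assumption a floor of 3 read pairs lies at 18 estimated counts, which covers counting error only. 4930523C07Rik averaged 23.5 ± 1.98 CPM in untreated si-NC libraries, 3.01 ± 0.494 with si-IAMP-1 and 1.84 ± 0.0635 with si-IAMP-2 (SD, n = 3). Its log2 fold changes with the 2 siRNAs were −2.97 and −3.69 in untreated CFs, −2.85 and −3.44 under IL-17 and −2.23 and −2.65 under TGF-β. In hearts it was 15.9 to 18.8 CPM in Het and 15.2 to 17.3 CPM in KO, which does not check the genotypes, since a frameshift can leave the transcript in place. The 10 fibroblast markers summed to 13213 to 21377 CPM in CFs and 639 to 956 CPM in hearts, and the 7 cardiomyocyte markers to 41990 to 45795 CPM in hearts and at most 98.2 CPM in CFs, where Myh6 was at or under the floor in every group. Untreated, IL-17 and TGF-β CFs stand in separate tables, so stimulus and table cannot be told apart wherever they are compared.

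In untreated si-NC CFs, Epas1 was the highest of the 10 mRNAs per exonic length, at 62.8 ± 0.205 CPM per kb. Hif1a followed at 33.8 ± 0.825 and Egln1 at 29.0 ± 0.545 CPM per kb (SD, n = 3). Next in level per kb came Egln2 at 18.9, Bnip3 at 11.9, Hif1an at 10.5, Vhl at 8.81, Arnt at 8.67, Egln3 at 4.31 and Ankrd37 at 0.925 CPM. Among neighbours in this order only Vhl (8.52 to 9.25) and Arnt (8.28 to 9.04) had overlapping libraries. The mRNA of the shared beta subunit was thus the lowest of the 3 subunit mRNAs. Lengths are unions of annotated exons, so unused exons lower a gene's value.

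**Figure D1:**
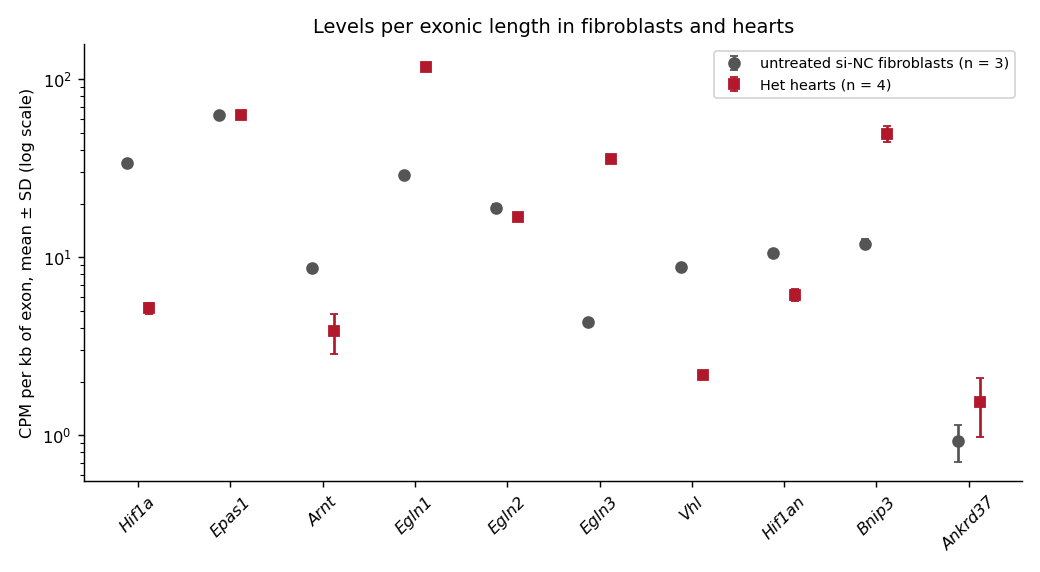
Level per kb of annotated exon (CPM per kb, log scale) of the 10 genes in untreated si-NC CFs (n = 3) and Het hearts (n = 4), with the mean and SD. Epas1 is at 62.8 in CFs and 63.1 in hearts, while Hif1a is at 33.8 in CFs and 5.18 in hearts.

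Hearts had another order. Egln1 led at 117 ± 4.8 CPM per kb (SD, n = 4), followed by Epas1 at 63.1, Bnip3 at 49.3 and Egln3 at 35.4, and Vhl at 2.17 and Ankrd37 at 1.54 were last. The level per kb of Hif1a was 6.51 times as high in untreated si-NC CFs as in Het hearts, whereas that of Egln3 was 8.22 times, that of Bnip3 4.15 times and that of Egln1 4.03 times as high in hearts. These ratios set whole tissue beside cultured cells from separately made tables and carry no test. CFs and hearts were also normalised separately. The 10 most abundant genes of a library held 6.23 to 6.32% of the counts in untreated si-NC CFs and 26.23 to 29.02% in Het hearts. Such a difference can shift all these ratios together. In bulk samples, fewer cells of a type and less RNA per cell cannot be told apart.

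**Figure D2:**
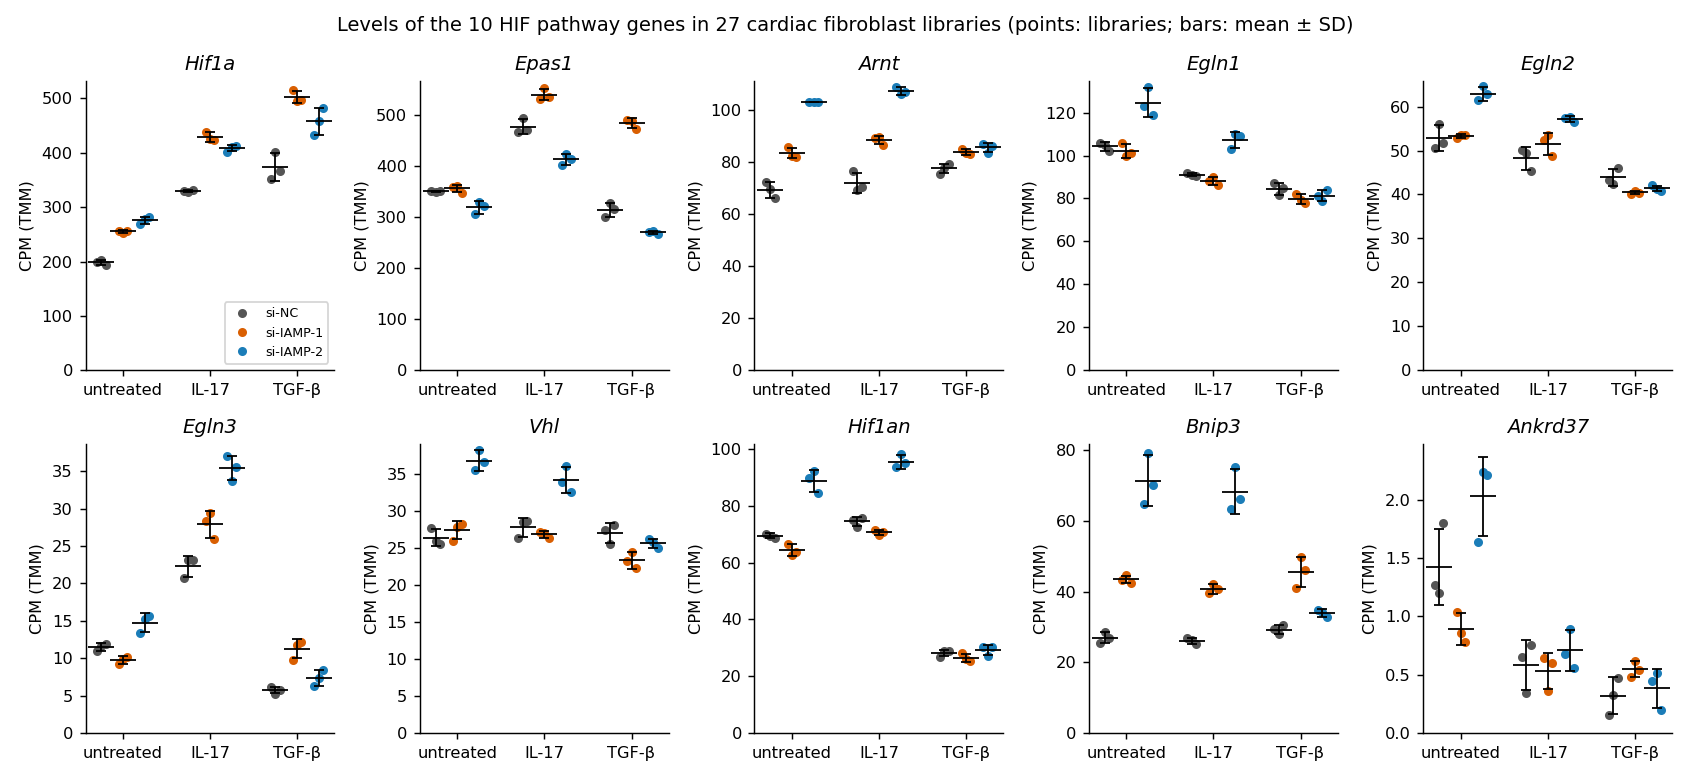
TMM-normalised CPM (from 0) of each gene in the 27 CF libraries by stimulus and siRNA, with points for libraries and bars for the mean ± SD of 3. Every knockdown library of Hif1a lies above the si-NC libraries of the same stimulus, and the si-NC mean of Hif1an falls from 69.4 CPM untreated to 28.2 CPM under TGF-β.

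The first question was whether IAMP knockdown moved the pathway's mRNAs. In untreated CFs with si-IAMP-1, 3 of the 10 genes rose and 3 fell with an adjusted p no higher than 0.05 in the quasi-likelihood test of edgeR, where 19.5% of all 19669 genes tested were higher and 20.4% lower. With si-IAMP-2, 8 rose and 1 fell (24.4% of all genes higher, 25.0% lower). Under IL-17, 5 rose and 1 fell with si-IAMP-1 (20.3% and 21.9% of all genes), and 8 rose and 1 fell with si-IAMP-2 (25.0% and 25.6%). Under TGF-β, 5 rose and 1 fell with si-IAMP-1 (11.7% and 11.4%), and 4 rose and 1 fell with si-IAMP-2 (15.1% and 14.8%). Between each siRNA and si-NC the libraries did not overlap for 6 and 9 of the 10 genes in untreated CFs (49.5% and 56.8% of all genes), 7 and 9 under IL-17 (51.8% and 58.2%) and 8 and 6 under TGF-β (37.1% and 40.7%). The methods of the study also ask for a fold change of 2 in knockdown CFs and of 1.5 in those under IL-17, and the latter was taken over here for TGF-β, for which they name none. With these thresholds, 0 of the 10 genes passed with si-IAMP-1 (4.76% of all genes) and 1, Bnip3, with si-IAMP-2 (10.7%) in untreated CFs. Under IL-17 1 passed, Bnip3, with si-IAMP-1 (13.5%) and 2, Egln3 and Bnip3, with si-IAMP-2 (21.7%). Under TGF-β 3 passed, Epas1, Egln3 and Bnip3, with si-IAMP-1 (4.36%) and 0 with si-IAMP-2 (7.51%). None of these TGF-β values reached 2-fold, the largest being Egln3 at 0.98 on the log2 scale. Within a table the comparisons share their si-NC libraries.

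**Figure D3:**
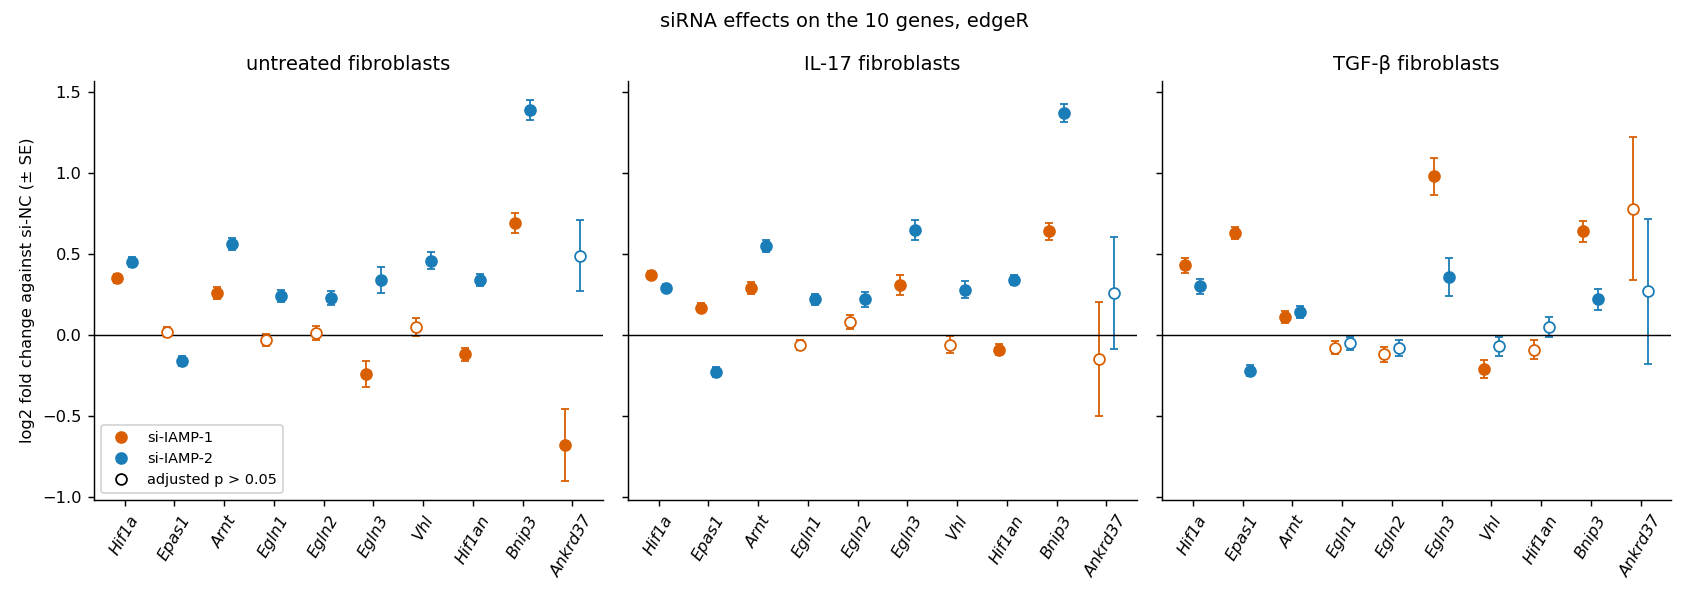
Log2 fold change against si-NC ± SE from edgeR for the 10 genes with si-IAMP-1 and si-IAMP-2 in untreated, IL-17 and TGF-β CFs, 3 libraries a group, with filled symbols for an adjusted p no higher than 0.05. Hif1a, Arnt and Bnip3 lie above 0 with filled symbols in all 6 comparisons, and Epas1 lies below 0 with si-IAMP-2 in all 3 panels.

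Hif1a mRNA rose in each of the 6 siRNA comparisons. In untreated CFs it stood at 200, 203 and 194 CPM with si-NC, 257, 253 and 257 CPM with si-IAMP-1 and 269, 278 and 281 CPM with si-IAMP-2. Every knockdown library lay above every si-NC library, with log2 fold changes of 0.35 (SE 0.0292, edgeR adjusted p = 4.45e-08) and 0.45 (SE 0.0292, edgeR adjusted p = 9.59e-10). Under IL-17 it stood at 330, 327 and 331 CPM with si-NC, 439, 425 and 423 CPM with si-IAMP-1 and 402, 411 and 413 CPM with si-IAMP-2. The groups were again apart, by 0.37 (SE 0.025, edgeR adjusted p = 1.96e-09) and 0.29 (SE 0.025, edgeR adjusted p = 2.28e-08) on the log2 scale. Under TGF-β it stood at 352, 402 and 366 CPM with si-NC, 516, 495 and 497 CPM with si-IAMP-1 and 433, 458 and 483 CPM with si-IAMP-2. All knockdown libraries were above the si-NC libraries there too, at log2 values of 0.43 (SE 0.0471, edgeR adjusted p = 3.21e-06) and 0.30 (SE 0.047, edgeR adjusted p = 0.000115). The antisense gene Gm15283 shares exon sequence with Hif1a but held at most 66 estimated counts in a CF library, where Hif1a held at least 24160.

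Arnt, which encodes the partner of both alpha subunits, also rose in all 6 comparisons, and its libraries did not overlap with those of si-NC in any of them. In untreated CFs it stood at 72.4, 69.5 and 66.3 CPM with si-NC, 85.6, 82.5 and 82.1 CPM with si-IAMP-1 and 103, 103 and 103 CPM with si-IAMP-2. The si-IAMP-2 libraries were the highest, and the log2 fold changes were 0.26 (SE 0.0367, edgeR adjusted p = 2.24e-05) and 0.56 (SE 0.0367, edgeR adjusted p = 1.34e-09). They were 0.29 and 0.55 under IL-17 (edgeR adjusted p = 7.58e-06 and 1.08e-09), and 0.11 and 0.14 under TGF-β (edgeR adjusted p = 0.0315 and 0.00591). The smallest of these, with si-IAMP-1 under TGF-β, no longer passed without TGF-β si-NC library 1 or TGF-β si-IAMP-1 library 1, 2 or 3 (edgeR adjusted p = 0.104, 0.104, 0.0802 and 0.072, range 0.0189 to 0.104 over all its alternatives in edgeR or DESeq2, as for the ranges below).

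Epas1, which encodes the other alpha subunit, moved in opposite directions with the 2 siRNAs where both passed. In untreated CFs it stood at 352, 350 and 352 CPM with si-NC and 306, 330 and 322 CPM with si-IAMP-2, and it fell with si-IAMP-2 in all 3 tables. Those log2 fold changes were −0.16 in untreated, −0.23 in IL-17 and −0.22 in TGF-β CFs (edgeR adjusted p = 0.000323, 3.5e-06 and 0.000139). With si-IAMP-1 the value was 0.02 in untreated CFs (SE 0.0305, edgeR adjusted p = 0.744), but Epas1 rose by 0.17 under IL-17 (SE 0.0291, edgeR adjusted p = 0.000125). Under TGF-β it stood at 300, 328 and 316 CPM with si-NC, 491, 489 and 474 CPM with si-IAMP-1 and 271, 273 and 267 CPM with si-IAMP-2. The 3 groups were apart, with si-IAMP-1 above si-NC by 0.63 (SE 0.0354, edgeR adjusted p = 1.19e-09) and si-IAMP-2 below it. For si-IAMP-2 against si-IAMP-1 the difference was −0.17, −0.40 and −0.84 in the 3 tables (edgeR adjusted p = 0.000146, 4.67e-09 and 9.59e-11).

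The balance of the alpha subunit mRNAs followed from these values. In level per kb, the ratio of Hif1a to Epas1 was 0.522 to 0.551 in untreated si-NC libraries, 0.662 to 0.7 with si-IAMP-1 and 0.799 to 0.834 with si-IAMP-2. Under IL-17 it was 0.627 to 0.669, 0.73 to 0.781 and 0.919 to 0.948. Under TGF-β it was 1.1 to 1.16, 0.96 to 0.997 and 1.51 to 1.72, so Hif1a was above Epas1 per kb there with si-NC and si-IAMP-2. With si-IAMP-1 it lay just under Epas1 per kb, but above it in mean CPM (503 against 485). That order therefore depends on the division by length. In hearts the mean ratio was 0.0824 in Het and 0.0815 in KO.

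**Figure D4:**
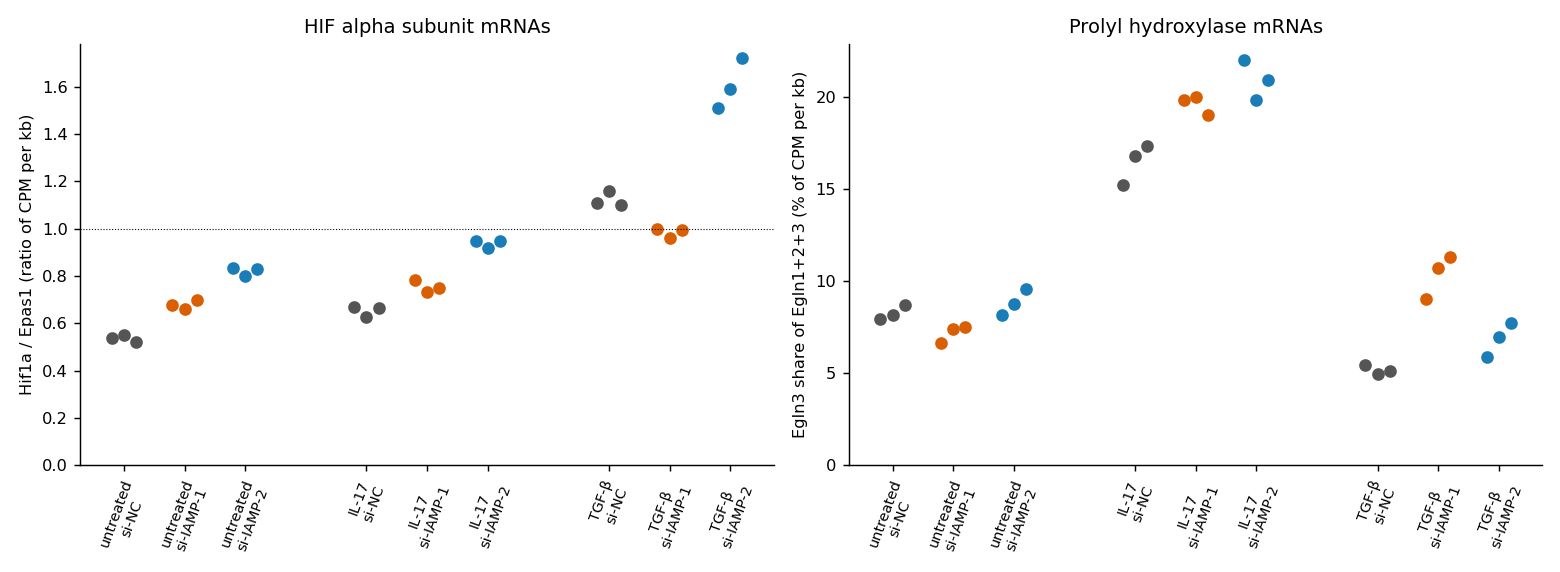
Left, the ratio of Hif1a to Epas1 in CPM per kb, with a line at 1; right, the percent of Egln3 in the summed CPM per kb of Egln1, Egln2 and Egln3. Each point is 1 of the 27 CF libraries, by stimulus and siRNA. The ratio is highest, at 1.51 to 1.72, with si-IAMP-2 under TGF-β, and the mean Egln3 share runs from 5.18% in TGF-β si-NC to 20.9% in IL-17 si-IAMP-2 libraries.

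Among the hydroxylases, Egln1, which encodes the main HIF prolyl hydroxylase PHD2, rose with si-IAMP-2 from 104 ± 1.96 to 125 ± 6.56 CPM in untreated CFs (SD, n = 3; log2 0.24, SE 0.0374, edgeR adjusted p = 3.75e-05). Under IL-17 it rose with si-IAMP-2 from 91.1 ± 0.554 to 107 ± 3.88 CPM (SD, n = 3; log2 0.22, SE 0.0318, edgeR adjusted p = 1.65e-05). Egln2, which encodes PHD1, rose by 0.23 and 0.22 in the same 2 comparisons (edgeR adjusted p = 0.000224 and 0.000476). In the other 4 comparisons neither passed, with Egln1 at −0.08 to −0.03 and Egln2 at −0.12 to 0.08 on the log2 scale.

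Hif1an, which encodes the asparagine hydroxylase FIH, rose with si-IAMP-2 from 69.4 ± 0.856 to 88.8 ± 3.81 CPM in untreated CFs (SD, n = 3) and from 74.4 ± 1.73 to 95.6 ± 2.38 CPM under IL-17 (SD, n = 3). Both log2 fold changes were 0.34 (edgeR adjusted p = 1.01e-06 and 6.9e-08). With si-IAMP-1 it fell by 0.12 in untreated CFs (SE 0.0382, edgeR adjusted p = 0.0231) and by 0.09 under IL-17 (SE 0.0317, edgeR adjusted p = 0.0394). The first of these small falls no longer passed without untreated si-NC library 1 or untreated si-IAMP-1 library 2 or 3 (edgeR adjusted p = 0.0671, 0.104 and 0.0767, range 0.00806 to 0.104), nor with no filter on low counts (edgeR adjusted p = 0.053). The second no longer passed without IL-17 si-NC library 1 or 3 or IL-17 si-IAMP-1 library 1, 2 or 3 or IL-17 si-IAMP-2 library 1 (edgeR adjusted p = 0.0955, 0.126, 0.0556, 0.113, 0.0639 and 0.0508, range 0.0191 to 0.126). It was also lost with no filter, with only the groups compared and with the replicate number as a block (edgeR adjusted p = 0.0577, 0.08 and 0.0546).

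Vhl, whose product recognises hydroxylated HIF alpha subunits, rose with si-IAMP-2 by 0.46 in untreated CFs (SE 0.0531, edgeR adjusted p = 1.25e-06) and by 0.28 under IL-17 (SE 0.0529, edgeR adjusted p = 0.000247). Its untreated mean went from 26.4 ± 1.15 to 36.9 ± 1.4 CPM (SD, n = 3). With si-IAMP-1 under TGF-β it fell by 0.21 (SE 0.058, edgeR adjusted p = 0.0128), which no longer passed without TGF-β si-NC library 3 or TGF-β si-IAMP-1 library 3 (edgeR adjusted p = 0.0588 and 0.0701, range 0.00469 to 0.0701).

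Egln3, which encodes PHD3 and is both a hydroxylase and a HIF target, changed in all 6 comparisons, with 5 rises and 1 fall. In untreated CFs it stood at 10.9, 11.6 and 11.9 CPM with si-NC, 9.17, 9.92 and 10.2 CPM with si-IAMP-1 and 13.3, 15.3 and 15.6 CPM with si-IAMP-2. The 3 groups did not overlap, with si-IAMP-1 below si-NC (−0.24, SE 0.0799, edgeR adjusted p = 0.0245) and si-IAMP-2 above it (0.34, SE 0.0793, edgeR adjusted p = 0.00166). The fall no longer passed without untreated si-NC library 2 or 3 or untreated si-IAMP-1 library 1 (edgeR adjusted p = 0.0613, 0.0786 and 0.113, range 0.013 to 0.113). Under IL-17 it stood at 20.7, 23.1 and 23.1 CPM with si-NC, 28.4, 29.4 and 25.9 CPM with si-IAMP-1 and 37.0, 33.7 and 35.6 CPM with si-IAMP-2. Both siRNAs lay above si-NC there, by 0.31 (SE 0.0635, edgeR adjusted p = 0.000592) and 0.65 (SE 0.0634, edgeR adjusted p = 1.27e-07). Under TGF-β it stood at 6.1, 5.25 and 5.76 CPM with si-NC, 9.79, 11.8 and 12.2 CPM with si-IAMP-1 and 6.25, 7.31 and 8.43 CPM with si-IAMP-2. The si-IAMP-1 libraries were the highest, with a log2 fold change of 0.98 (SE 0.116, edgeR adjusted p = 6.76e-06) against 0.36 for si-IAMP-2 (SE 0.116, edgeR adjusted p = 0.0245). The latter no longer passed without TGF-β si-NC library 2 or 3 or TGF-β si-IAMP-2 library 2 or 3 (edgeR adjusted p = 0.0995, 0.0576, 0.0552 and 0.146, range 0.00738 to 0.146). Of the summed level per kb of the 3 prolyl hydroxylase mRNAs, Egln3 made up 7.92 to 8.69% in untreated, 15.2 to 17.3% in IL-17 and 4.96 to 5.45% in TGF-β si-NC libraries.

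Bnip3, which encodes a mitochondrial protein of mitophagy and cell death, had the largest siRNA effects of the 10 genes in untreated and IL-17 CFs. It stood at 25.5, 28.6 and 26.8 CPM in untreated si-NC libraries, 43.2, 44.7 and 42.6 CPM with si-IAMP-1 and 64.8, 79.2 and 70.3 CPM with si-IAMP-2. The lowest si-IAMP-2 library was above the highest si-IAMP-1 library, and the log2 fold changes were 0.69 (SE 0.062, edgeR adjusted p = 1.35e-07) and 1.39 (SE 0.0623, edgeR adjusted p = 9.42e-12). Under IL-17 it stood at 26.9, 26.2 and 25.1 CPM with si-NC, 39.5, 42.2 and 40.7 CPM with si-IAMP-1 and 63.3, 75.4 and 66.3 CPM with si-IAMP-2. The groups kept that order, at 0.64 (SE 0.0552, edgeR adjusted p = 5.37e-08) and 1.37 (SE 0.0555, edgeR adjusted p = 1.3e-12). Under TGF-β it stood at 29.3, 28.0 and 30.5 CPM with si-NC, 41.1, 49.7 and 46.1 CPM with si-IAMP-1 and 34.9, 34.3 and 32.7 CPM with si-IAMP-2. Here si-IAMP-1 was the higher, with 0.64 (SE 0.0643, edgeR adjusted p = 1.07e-06) against 0.22 (SE 0.0643, edgeR adjusted p = 0.0166). The rise with si-IAMP-2 no longer passed without TGF-β si-NC library 2 or TGF-β si-IAMP-2 library 1 or 2 (edgeR adjusted p = 0.07, 0.062 and 0.0501, range 0.00752 to 0.07). For si-IAMP-2 against si-IAMP-1 the difference was 0.70, 0.73 and −0.43 in the 3 tables (edgeR adjusted p = 5.76e-08, 5.56e-09 and 9.66e-05).

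Ankrd37, an ankyrin-repeat gene and HIF-1 target, was measured at low depth, with 17 to 254 estimated counts in a CF library. Its exons overlap those of Ufsp2 and Lrp2bp on the opposite strand, and Ufsp2 held up to 7926 estimated counts, so without a stated strand setting its values are uncertain. In untreated CFs it stood at 1.27, 1.2 and 1.8 CPM with si-NC, 1.04, 0.856 and 0.777 CPM with si-IAMP-1 and 1.64, 2.24 and 2.21 CPM with si-IAMP-2. The si-IAMP-1 libraries lay below those of si-NC (−0.68, SE 0.223, edgeR adjusted p = 0.0219), and this fall no longer passed without untreated si-NC library 3 or untreated si-IAMP-1 library 2 or 3 (edgeR adjusted p = 0.134, 0.0646 and 0.0858, range 0.0167 to 0.134). The value with si-IAMP-2 was 0.49 (SE 0.218, edgeR adjusted p = 0.0743), which passed without untreated si-NC library 3 or untreated si-IAMP-2 library 1 (edgeR adjusted p = 0.0212 and 0.0431, range 0.0212 to 0.231). Under IL-17 and TGF-β no siRNA comparison of Ankrd37 passed, with edgeR adjusted p values of 0.252 to 0.797.

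The 2 siRNAs differed from each other in 10 of the 10 genes in untreated CFs (45.5% of all genes), in 9 under IL-17 (46.2%) and in 4 under TGF-β (24.0%). In untreated CFs all but Epas1 were higher with si-IAMP-2, whereas under TGF-β the genes that differed, Hif1a, Epas1, Egln3 and Bnip3, were all lower with si-IAMP-2. The Hif1a differences were small, at 0.10, −0.08 and −0.13 (edgeR adjusted p = 0.0101, 0.0132 and 0.0464). In untreated CFs that of Hif1a no longer passed without untreated si-IAMP-2 library 3 (edgeR adjusted p = 0.0533, range 0.000224 to 0.0533), and under IL-17 without IL-17 si-IAMP-2 library 1 (edgeR adjusted p = 0.0548, range 0.00697 to 0.0548). Under TGF-β it no longer passed without TGF-β si-NC library 3 or TGF-β si-IAMP-1 library 1, 2 or 3 or TGF-β si-IAMP-2 library 1 or 2 (edgeR adjusted p = 0.0712, 0.164, 0.092, 0.0884, 0.208 and 0.103, range 0.0126 to 0.208), nor with the replicate number as a block (edgeR adjusted p = 0.053). That of Egln2 under IL-17 (0.14) no longer passed without IL-17 si-IAMP-1 library 3 or IL-17 si-IAMP-2 library 1 or 2 (edgeR adjusted p = 0.119, 0.0575 and 0.0523, range 0.00802 to 0.119).

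Marker sums also differed between the siRNA groups. The 7 cardiomyocyte markers summed to 90.6 to 98.2 CPM in untreated si-NC libraries, 42.6 to 47.6 CPM with si-IAMP-1 and 28.3 to 33.3 CPM with si-IAMP-2, with Myh6 and Myl2 at or under the floor in all 3 groups. In the same groups the 10 fibroblast markers summed to 13565 to 13903, 18901 to 19735 and 17510 to 17812 CPM, and the 5 macrophage markers to 54.3 to 58.4, 56.6 to 59.7 and 71.9 to 76.0 CPM. Of the single fibroblast markers 5 rose and 2 fell with si-IAMP-1 (median log2 0.10) and 3 rose and 5 fell with si-IAMP-2 (median −0.15), so with si-IAMP-2 the sum and the median differ in sign. The macrophage sum was also higher with the siRNAs under IL-17, at 53.9 to 54.3, 61.8 to 67.3 and 74.1 to 81.1 CPM. Under TGF-β it was lower with them, at 149 to 157, 120 to 134 and 136 to 140 CPM in the same order. Of the 4 cardiomyocyte markers tested in untreated CFs, 0 rose, and 1 fell with si-IAMP-1 and 2 with si-IAMP-2. Of the 5 macrophage markers, 1 rose with si-IAMP-1 and 2 with si-IAMP-2 there, 2 with each under IL-17, and 0 fell. Under TGF-β 3 fell and 0 rose with si-IAMP-1, and 2 fell and 1 rose with si-IAMP-2. A sum can thus follow a few abundant genes. The part of these markers in the siRNA results was not tested.

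The second question was how the stimuli moved the pathway, with a call asking for an adjusted p no higher than 0.05 and a change of at least 2-fold. With IL-17, 1 of the 10 genes was called in si-NC CFs (1.46% of all genes), and 5 passed the adjusted p alone (12.2%). Hif1a rose from 199 ± 4.86 to 329 ± 2.13 CPM (SD, n = 3), by 0.73 on the log2 scale (SE 0.0375, edgeR adjusted p = 3.12e-16). Epas1 rose by 0.44 (SE 0.0326, edgeR adjusted p = 2.58e-12) and Egln1 fell by 0.19 (SE 0.0379, edgeR adjusted p = 0.000336). Egln3 rose by 0.96 (SE 0.0889, edgeR adjusted p = 5.62e-10), just under the 2-fold threshold, which it passed without IL-17 si-NC library 1 (log2 1.01, edgeR adjusted p = 2.37e-09, range 5.11e-21 to 1.78e-06). The called gene was Ankrd37, at −1.29 (SE 0.355, edgeR adjusted p = 0.0122), and it was no longer called without untreated si-NC library 3 or IL-17 si-NC library 2 (edgeR adjusted p = 0.0811 and 0.0963, range 0.000759 to 0.0963). Bnip3 did not pass, with 25.5, 28.6 and 26.8 CPM in untreated and 26.9, 26.2 and 25.1 CPM in IL-17 libraries (log2 −0.05, SE 0.068, edgeR adjusted p = 0.832). In CFs with si-IAMP-1, 1 gene was called for IL-17 (1.83% of all genes), Egln3 at 1.51 (edgeR adjusted p = 1.03e-14). With si-IAMP-2 2 were called (1.65%), Egln3 at 1.27 and Ankrd37 at −1.52 (edgeR adjusted p = 7.31e-13 and 0.00254).

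With TGF-β, 3 of the 10 genes were called in si-NC CFs (20.8% of all genes), and 8 passed the adjusted p alone (55.5%). Hif1an went from 70.2, 69.5 and 68.5 CPM in untreated to 26.9, 28.8 and 28.8 CPM in TGF-β libraries. The groups were far apart, and the fall was 1.30 on the log2 scale (SE 0.045, edgeR adjusted p = 5.27e-22). Egln3 fell by 1.01 (SE 0.0921, edgeR adjusted p = 2.6e-11), and came under the 2-fold threshold with no filter on low counts and without untreated si-NC library 3 or TGF-β si-NC library 2 (log2 −0.98 and −0.97, edgeR adjusted p = 5.32e-10 and 1.33e-09, range 3.79e-23 to 1.47e-06). Ankrd37 fell by 2.16 (SE 0.371, edgeR adjusted p = 6.77e-06), to 17 to 52 estimated counts a library, at or near the floor. Hif1a rose by 0.91 (SE 0.0376, edgeR adjusted p = 5.53e-20) to 352, 402 and 366 CPM, the opposite of Epas1, which fell by 0.16 (SE 0.0326, edgeR adjusted p = 8.1e-05). Arnt rose by 0.16, while Egln1 fell by 0.30 and Egln2 by 0.27 (edgeR adjusted p = 0.000283, 2.57e-08 and 5.75e-06). Vhl (0.03) and Bnip3 (0.12) did not pass (edgeR adjusted p = 0.638 and 0.139).

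In TGF-β CFs with si-IAMP-1, 1 of the 10 genes was called against untreated CFs of the same siRNA (20.0% of all genes), Hif1an at −1.28 (edgeR adjusted p = 9.39e-22). With si-IAMP-2, 4 were called (20.1%). These were Hif1an at −1.60, Bnip3 at −1.07, Egln3 at −1.01 and Ankrd37 at −2.40 (edgeR adjusted p = 2.77e-24, 4.21e-15, 2.02e-11 and 1.13e-06). Egln3 came under the 2-fold threshold without untreated si-IAMP-2 library 2 or 3 or TGF-β si-IAMP-2 library 1 (log2 −0.98, −0.95 and −0.90, edgeR adjusted p = 5.42e-10, 8.87e-10 and 8.12e-10, range 1.51e-23 to 1.97e-06), and Bnip3 without untreated si-IAMP-2 library 2 (log2 −0.99, edgeR adjusted p = 4.65e-14, range 2.71e-47 to 4.37e-09). For Egln3 this was also so with RLE size factors, with no filter, with at least 10 counts in every library and with estimated counts divided by 6. The IL-17 and TGF-β comparisons share the untreated libraries. In TGF-β si-NC libraries the 5 macrophage markers summed to 149 to 157 CPM against 54.3 to 58.4 CPM in untreated ones, the 6 endothelial markers to 93.3 to 94.7 against 49.2 to 54.8 CPM, the 10 fibroblast markers to 17785 to 18597 against 13565 to 13903 CPM and the 7 cardiomyocyte markers to 5.54 to 6.27 against 90.6 to 98.2 CPM. Although their sum was higher, 6 of the single fibroblast markers fell and 3 rose (median log2 −0.40). Of the single macrophage markers 4 of 5 rose and 0 fell, and of the endothelial ones 5 of 6 rose and 1 fell. Only 2 of the 6 cardiomyocyte markers tested fell, and 0 rose. The part of these markers in the TGF-β results was not tested.

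Whether an siRNA effect differed between stimulated and untreated CFs was tested as an interaction. For IL-17, 1 of the 10 genes passed with si-IAMP-1 (1.73% of all genes) and 0 with si-IAMP-2 (1.64%) in edgeR. The gene was Egln3, whose si-IAMP-1 effect was 0.56 higher on the log2 scale under IL-17 (SE 0.125, edgeR adjusted p = 0.0105). For si-IAMP-2, 3 of the 10 had an unadjusted p under 0.05 in edgeR, and DESeq2 also called 0.

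For TGF-β, 5 genes passed with si-IAMP-1 (19.5% of all genes) and 7 with si-IAMP-2 (29.5%). The si-IAMP-1 effect was higher under TGF-β by 1.21 for Egln3 (SE 0.129, edgeR adjusted p = 1.1e-08), by 0.60 for Epas1 (SE 0.0461, edgeR adjusted p = 1.16e-11) and by 1.45 for Ankrd37 (SE 0.508, edgeR adjusted p = 0.0414). For Vhl the difference was −0.27 and for Arnt −0.15 (edgeR adjusted p = 0.0118 and 0.0325). With si-IAMP-2 all 7 differences were negative, the largest being that of Bnip3 at −1.19 (SE 0.0958, edgeR adjusted p = 1.29e-11). They were −0.56 for Vhl, −0.43 for Arnt, −0.34 for Egln2, −0.32 for Egln1, −0.30 for Hif1an and −0.18 for Hif1a (edgeR adjusted p = 6.57e-07, 3.79e-08, 8.8e-05, 1.91e-05, 0.000268 and 0.00911). The knockdown itself was smaller under TGF-β, with differences for 4930523C07Rik of 0.73 for si-IAMP-1 and 1.02 for si-IAMP-2 (edgeR adjusted p = 0.000541 and 3.84e-06), and its part in these results was not tested. The Hif1a difference no longer passed without untreated si-IAMP-2 library 3 or TGF-β si-NC library 2 (edgeR adjusted p = 0.0786 and 0.155, range 0.00184 to 0.155). That of Arnt with si-IAMP-1 no longer passed without untreated si-NC library 2 or 3 or untreated si-IAMP-1 library 1 or TGF-β si-NC library 2 or 3 or TGF-β si-IAMP-1 library 2 or 3 (edgeR adjusted p = 0.0562, 0.119, 0.102, 0.108, 0.0906, 0.12 and 0.0707, range 0.0281 to 0.12), and that of Ankrd37 without untreated si-NC library 3 or untreated si-IAMP-1 library 2 or 3 or TGF-β si-NC library 1 or 2 or TGF-β si-IAMP-1 library 2 or 3 (edgeR adjusted p = 0.117, 0.0777, 0.0903, 0.135, 0.0608, 0.0862 and 0.0643, range 0.0127 to 0.135). The Arnt difference was also lost with RLE size factors, with no filter and with at least 10 counts in every library, and the Ankrd37 difference with no filter and with the replicate block (edgeR adjusted p = 0.0649 and 0.0661).

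In hearts, 0 of the 10 genes differed between KO and Het, where 0.0% of 16675 genes passed in edgeR. Without adjustment 601 genes had a p under 0.05 in edgeR, 2 of them among the 10, and DESeq2 called 0 of the 10 and 5 of 29670 genes, with 417 at an unadjusted p under 0.05. Hif1a stood at 29.5, 32.3, 32.4 and 28.0 CPM in Het and 29.2, 33.4, 32.0 and 33.1 CPM in KO. These libraries overlapped (log2 0.06, SE 0.0665, edgeR adjusted p = 1.0). Egln3 stood at 96.5, 90.9, 97.8 and 91.9 CPM in Het and 82.5, 80.1, 84.3 and 86.1 CPM in KO. It was the only one of the 10 whose groups did not overlap, as those of 2.37% of all genes tested did not, at a log2 value of −0.18 (SE 0.0439, edgeR unadjusted p = 0.00199, adjusted p = 1.0). Bnip3 stood at 103, 123, 120 and 101 CPM in Het and 116, 128, 133 and 131 CPM in KO, with overlap (log2 0.19, SE 0.0746, edgeR unadjusted p = 0.0299, adjusted p = 1.0). The other 7 genes lay between −0.02 and 0.08 on the log2 scale. Arnt varied among the hearts of each group, with overlap, at 33.3, 19.8, 31.9 and 37.9 CPM in Het and 24.3, 35.4, 32.8 and 37.4 CPM in KO.

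**Figure D5:**
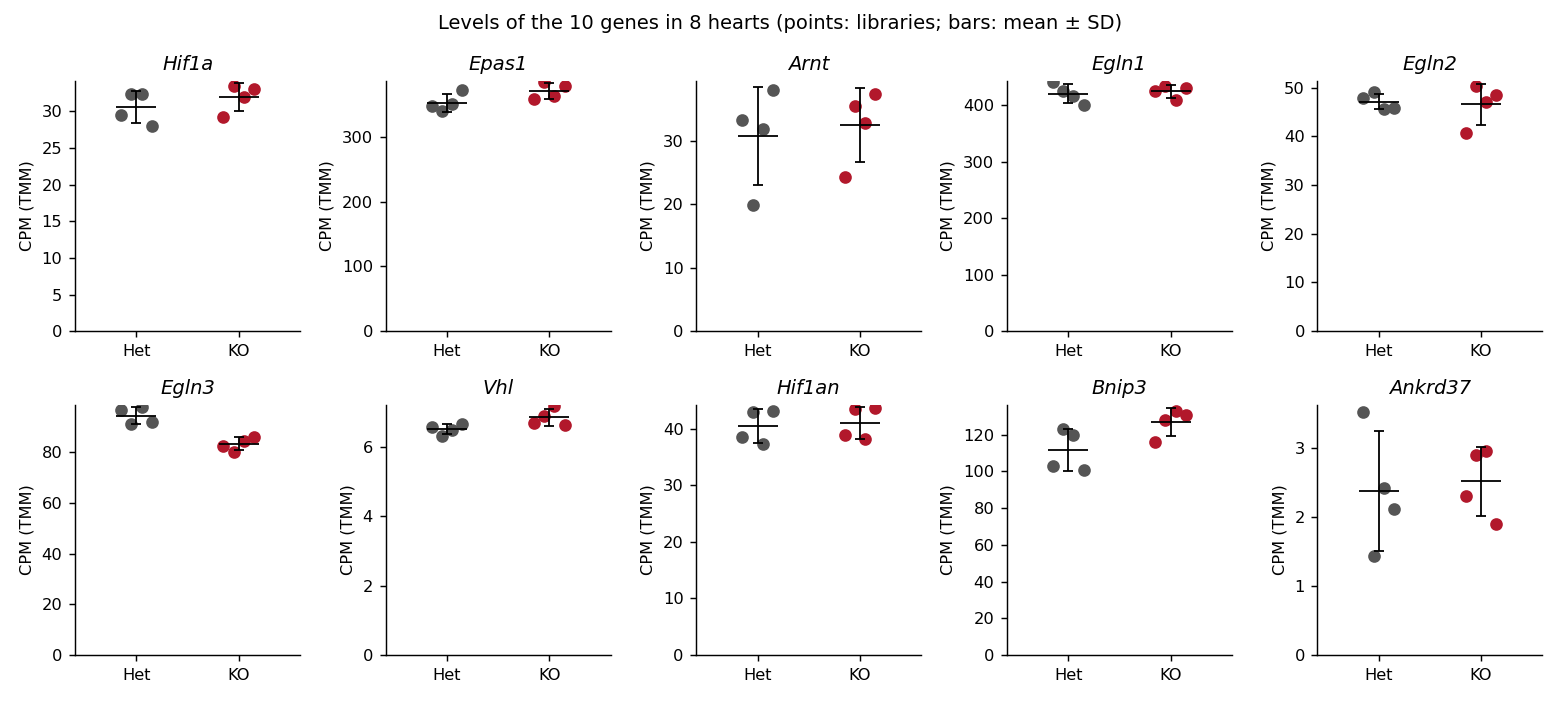
TMM-normalised CPM (from 0) of each gene in 4 Het and 4 KO hearts, with points for libraries and bars for the mean ± SD. The groups overlap for each gene but Egln3, which runs from 90.9 to 97.8 CPM in Het and 80.1 to 86.1 CPM in KO.

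Of 41 other HIF target genes, 40 were tested in CFs. In untreated CFs 21 rose and 9 fell with si-IAMP-1 (19.5% and 20.4% of all genes) and 26 rose and 5 fell with si-IAMP-2 (24.4% and 25.0%), with median log2 fold changes of 0.16 and 0.41 beside −0.02 and −0.02 over all genes. Under IL-17 26 rose and 8 fell with si-IAMP-1 (20.3% and 21.9%) and 25 rose and 6 fell with si-IAMP-2 (25.0% and 25.6%, medians 0.36 and 0.42, all genes 0.00 and −0.02). Under TGF-β 23 rose and 4 fell with si-IAMP-1 (11.7% and 11.4%) and 17 rose and 8 fell with si-IAMP-2 (15.1% and 14.8%, medians 0.19 and 0.09, all genes 0.00 and 0.01). With both siRNAs under IL-17, 18 rose and 2 fell (12.9% and 13.5% of all genes). Hmox1, the heme oxygenase, had the largest mean rise, at 2.65 and 0.97 for the 2 siRNAs, with 2.62 and 1.06 in untreated and 2.09 and 1.24 in TGF-β CFs. Stc1, a secreted stanniocalcin, rose by 1.41 and 1.53 under IL-17 and by 1.55 and 1.79 in untreated CFs, and under TGF-β it was at 0.33 and −0.34 (edgeR adjusted p = 0.749 and 0.715). Ndrg1, a stress-responsive gene, rose by 1.20 and 0.97 under IL-17, 0.98 and 0.91 in untreated and 0.52 and 0.26 in TGF-β CFs. The genes that fell with both were Stc2, at −0.88 and −0.44 under IL-17, −1.01 and −0.50 in untreated and −0.59 and −0.60 in TGF-β CFs, and Pfkfb3, a regulator of glycolysis, at −0.24 and −0.53, −0.02 and −0.23 and 0.34 and −0.18. In hearts 0 of the 38 tested passed in edgeR or DESeq2, with 2 at an unadjusted p under 0.05 in edgeR.

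Of 15 other regulators of HIF, 2 rose and 5 fell with si-IAMP-1 in untreated CFs (19.5% and 20.4% of all genes) and 7 rose and 2 fell with si-IAMP-2 (24.4% and 25.0%, medians −0.03 and 0.08). Under IL-17 4 rose and 3 fell with si-IAMP-1 (20.3% and 21.9%) and 7 rose and 3 fell with si-IAMP-2 (25.0% and 25.6%), and under TGF-β 4 rose and 2 fell with si-IAMP-1 (11.7% and 11.4%) and 4 rose and 2 fell with si-IAMP-2 (15.1% and 14.8%). Siah2, a ubiquitin ligase that targets prolyl hydroxylases, was at 0.87 and 0.59 under IL-17, 0.76 and 0.82 in untreated and 0.03 and 0.22 in TGF-β CFs, where neither passed (edgeR adjusted p = 0.863 and 0.0545). Cited2, which competes with HIF for p300, was at 0.19 and 0.50, −0.10 and 0.39 and 0.15 and 0.30 in the same order. Eloc, Elongin C of the Vhl ligase, was at 0.12 and 0.12 under IL-17, and Rbx1, its RING subunit, at −0.45 and −0.21 under IL-17, −0.59 and −0.21 in untreated and −0.21 and −0.08 in TGF-β CFs. Siah1a, another ubiquitin ligase, was at −0.23 and −0.28 under IL-17. For Eloc the values were −0.03 and 0.16 in untreated and −0.19 and 0.08 in TGF-β CFs, and for Siah1a −0.07 and −0.18 and −0.06 and 0.12. In si-NC CFs, IL-17 moved 19 of the 40 targets and 1 of the 15 regulators past the adjusted p (12.2% of all genes), and TGF-β 32 and 13 (55.5%). In hearts 0 of the 15 regulators passed in edgeR or DESeq2, with 4 at an unadjusted p under 0.05 in edgeR.

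Over the 27 CF libraries, the genes whose log2 level followed Hif1a most closely among 13330 genes were Ccl7 (Pearson's r = 0.982), Sod2 (0.98) and Cxcl5 (0.959). For Epas1 they were Htr2a (0.851), Pcdh1 (0.844) and Spidr (0.843), and for Egln3 Mast4 (0.952), Srsf5 (0.944) and Plpp3 (0.939). For Bnip3 they were Washc2 (0.963), Kdm3a (0.958) and Hdgf (0.951). These libraries share their groups and tables, so the values describe likeness only.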

How the data were processed

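RNA-Seq tables of 27 CF and 8 heart libraries were used. Per the labels and the study's methods, the authors trimmed reads with cutadapt, aligned them to GRCm38 with HISAT2 and quantified them with StringTie, and the submitters also name DESeq2. The deposited tables list 55487 genes in whole numbers that were not normalized, taken as estimated counts in the CF tables, where 1 read pair was assumed to stand for 6, and as counts in the heart table. The strand setting is not given in the sources used here. CF columns were matched to samples through the labels, and heart columns to their group only.

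Each table was fitted over all its libraries in edgeR 4.0.16 (R 4.3.3) with TMM, filterByExpr and robust quasi-likelihood F tests, and stimuli and interactions in 1 fit of the 27 CF libraries. P values were adjusted by Benjamini-Hochberg over all genes tested. Each SE was derived from F, as the absolute log2 change over its root. CPM are TMM-normalised, and levels per kb used GENCODE vM21 exons, which hold 55141 of the identifiers. All 10 genes are reported. Of the other lists, up to 3 genes with the largest mean rise and up to 3 with the largest mean fall over both siRNAs under IL-17 are named, among those past the adjusted p with both. For Hif1a, Epas1, Egln3 and Bnip3 the 3 most similar genes are given, by Pearson's r of log2(CPM + 0.5) leaving out genes that averaged under 1 CPM. The genes and lists were chosen with earlier results of these data known. Alternatives were DESeq2 1.42.0, scaling by RLE, all genes with any count, a minimum of 10 counts per library, only the groups compared, the replicate number as a block, estimated counts divided by 6, other call thresholds and leaving out each library in turn. On data simulated with log2 changes of 1, edgeR called 55 of 97 changed genes in the untreated, 60 of 98 in the IL-17, 58 of 95 in the TGF-β, 58 of 99 in the 27-library and 81 of 99 in the heart design. With log2 changes of 0.5 it called 39 of 95, 45 of 98, 44 of 95, 44 of 97 and 48 of 98 in the same order. Smaller changes were not simulated. Each simulation changed 200 genes drawn over all levels. In the real data 19.5% of genes were higher and 20.4% lower with si-IAMP-1 in untreated CFs, and 0.0% passed in hearts. The adjusted p depends on that share and the test on the level, so these counts do not give the sensitivity for the 10 genes.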

Additional observations from a re-analysis of the deposited data

Results flagged for a closer look

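The effect of an IAMP siRNA differed between stimulated and untreated CFs, by an interaction with an adjusted p no higher than 0.05 in edgeR, in 13 instances. Values are on the log2 scale, stimulated minus untreated. With IL-17 it was Egln3 with si-IAMP-1 (0.56). With TGF-β and si-IAMP-1 they were Egln3 (1.21), Ankrd37 (1.45), Epas1 (0.60), Vhl (−0.27) and Arnt (−0.15). With TGF-β and si-IAMP-2 they were Bnip3 (−1.19), Vhl (−0.56), Arnt (−0.43), Egln2 (−0.34), Egln1 (−0.32), Hif1an (−0.30) and Hif1a (−0.18). Stimulus and table cannot be told apart in these comparisons. Among the 20 sets of 4 hearts, none held a heart that stood apart by Dixon's test.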

How the results depend on the processing

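With the fold threshold of the study, which for TGF-β is that of IL-17 taken over here, the members past the threshold with si-IAMP-1, with si-IAMP-2 and between the siRNAs were 0, 1 and 1 in untreated CFs, 1, 2 and 1 under IL-17 and 3, 0 and 2 under TGF-β. With no fold threshold, the stimulus calls with si-NC, si-IAMP-1 and si-IAMP-2 were 5, 5 and 6 for IL-17 and 8, 6 and 10 for TGF-β. For the IL-17 interaction of si-IAMP-1, 2 members passed with DESeq2, with at least 10 counts in every library and with only the groups compared, and for that of si-IAMP-2, 1 passed with only the groups compared. For the TGF-β interaction of si-IAMP-1, 3 passed with no filter, and 2 members were called for TGF-β in si-IAMP-1 CFs with at least 10 counts in every library. Of the other regulators, 2 passed for IL-17 in si-NC CFs with DESeq2. The cause was not tested. Leaving out 1 library gave 3 to 5 members for si-IAMP-2 under TGF-β, 0 to 2 for IL-17 in si-NC CFs, 2 to 4 for TGF-β in si-IAMP-2 CFs and 3 to 5 for the TGF-β interaction of si-IAMP-1. It gave 2 to 6 other regulators for si-IAMP-1 under TGF-β and 1 to 2 for IL-17 in si-NC CFs. Other member counts moved too, among them that of si-IAMP-1 in untreated CFs. There Hif1an and Ankrd37 both no longer passed without si-IAMP-1 library 2 (edgeR adjusted p = 0.104 and 0.0646) or 3 (edgeR adjusted p = 0.0767 and 0.0858). Directions turned only for members that were not called. Egln2 with si-IAMP-1 in untreated CFs was −0.01 with DESeq2, −0.00066 with at least 10 counts in every library and −0.03 to 0.05 without 1 library. In the same way Ankrd37 ran from −0.42 to 0.08 and from −0.01 to 0.48 with the siRNAs under IL-17 and from −0.06 to 0.66 with si-IAMP-2 under TGF-β. In hearts Arnt ran from −0.08 to 0.20, Egln1 from −0.01 to 0.04, Egln2 from −0.06 to 0.04, Hif1an from −0.02 to 0.05 and Ankrd37 from −0.10 to 0.33. Without 1 library, 1069 values of single genes kept their direction and side of the threshold, 63 no longer passed, 3 came to pass and 16 turned. These values belong to 134 results and not to every gene in every comparison, so changes elsewhere are not counted among them. The median of all genes shifted by −0.057 to 0.043 over all alternatives.

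Same-numbered libraries of a table correlated at −0.167 to 0.056 in their deviations from the group means, and differently numbered ones at −0.132 to 0.211. Under IL-17 the same-numbered pairs of si-NC and si-IAMP-1 (0.022 to 0.051) lay above the others (−0.027 to 0.001). Those of si-NC and si-IAMP-2 (−0.058 to −0.054) lay below the others (0.006 to 0.046). Deviations from a group mean sum to 0, so these values cannot say whether libraries share a culture. With the replicate block, 5 members in place of 6 passed for si-IAMP-1 under IL-17, 3 in place of 4 between the siRNAs under TGF-β and 4 in place of 5 for the TGF-β interaction of si-IAMP-1. The other member counts did not move. No paired analysis was possible for the hearts and the stimulus comparisons because the heart columns carry no replicate numbers and the numbers of separate tables do not mark shared cultures.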
